A study of Mus musculus with 21 samples.

Results

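Spleen CD11b+ cells of the study's control genotypes, Ptpn11D61Y/+ and MxCre, were set against each other. The libraries were chosen by their labels, and these are 4 of the 21 libraries of the series, 2 per genotype. All mice came from a model of juvenile myelomonocytic leukemia (JMML), a myeloproliferative disease of early childhood. MxCre mice carried the Cre recombinase under the interferon-inducible Mx1 promoter and normal Ptpn11 alleles. Ptpn11D61Y/+ mice carried no Cre, and 1 of their Ptpn11 alleles was the D61Y mutant behind a Neo-Stop cassette, which silences it until Cre removes the cassette. The spread between libraries also rests on 3 spleen CD11b+ libraries of terminally ill MxCre;Ptpn11D61Y/+ mice, in which Cre had switched the mutant allele on (disease stage S3, animals 540, 815 and 640). Every mouse, controls included, had received repeated doses of poly I:C, an inducer of interferon, although the labels state no treatment. CD11b+ cells were isolated with magnetic beads over repeated columns, and the labels add sorting without saying which library was sorted. The labels give neither age nor sex, and do not say that the libraries of a genotype came from separate mice, so p-values measure the spread between these libraries, which may be technical. The study's methods describe several mice per genotype for S3 and MxCre, which does not match the number of MxCre libraries used here, and do not mention RNA sequencing of Ptpn11D61Y/+ mice.

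Ptpn11 encodes SHP2, a tyrosine phosphatase that passes signals from growth factor and cytokine receptors to RAS and ERK, and D61Y is an activating mutation of JMML. CD11b, the integrin chain encoded by Itgam, is carried by neutrophils, monocytes, many macrophages and dendritic cells, and also by NK cells and some B cells, so a CD11b+ fraction of the spleen is a mixture. The spleen itself is rich in B and T cells, and red pulp macrophages there recycle iron from old red cells. Bulk RNA of such a fraction cannot tell fewer cells of a type from less RNA per cell.

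Total counts were 52965938 in MxCre 1, 76587795 in MxCre 2, 56121332 in Ptpn11D61Y/+ 1 and 62725638 in Ptpn11D61Y/+ 2. Depth was thus similar, but 2 libraries stood apart. MxCre 1 had counts for 14641 genes, against 19054 in MxCre 2, 20569 in Ptpn11D61Y/+ 1 and 20773 in Ptpn11D61Y/+ 2. CPM stands for counts scaled to the library total. Of 10931 genes whose median reached 2 CPM over the 7 spleen libraries, 102 were at a count of 0 in MxCre 1. In each other control library, at most 3 of the 10931 genes were at a count of 0. In Ptpn11D61Y/+ 1, mitochondrial genes held 3.79% of counts, against 0.598%, 0.317% and 0.641% in MxCre 1, MxCre 2 and Ptpn11D61Y/+ 2. The X-linked RNA Xist, which silences an X chromosome in female cells, was at 84.7 CPM in Ptpn11D61Y/+ 1 and at most 0.0522 CPM in the other control libraries. The Y-linked helicase gene Ddx3y was at 83.0 CPM in MxCre 1, 32.6 CPM in MxCre 2 and 31.9 CPM in Ptpn11D61Y/+ 2, and at 0 counts in Ptpn11D61Y/+ 1. The Ptpn11D61Y/+ libraries thus differed in sex-linked RNA, whereas both MxCre libraries held Y-linked RNA. The medians of gene lists below are therefore also given as the range over the 4 analyses that each left out 1 control library.

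The 5 genes with the most counts differed between the genotypes. They were Actb, S100a9, Tmsb4x, Junb and Fth1 in MxCre 1 and S100a9, Fth1, S100a8, Actb and Tmsb4x in MxCre 2. In Ptpn11D61Y/+ 1 they were Ighm, mt-Co1, Igkc, Cd74 and Tmsb4x, and in Ptpn11D61Y/+ 2 Cd74, Tmsb4x, Actb, Eef1a1 and H2-Ab1. The calprotectin gene S100a9 was thus among the 5 in both MxCre libraries and in neither Ptpn11D61Y/+ library, and Cd74, the invariant chain of MHC class II, the reverse. The level of Cd74 was 12.94 and 12.02 log2 CPM in MxCre and 13.02 and 13.72 log2 CPM in Ptpn11D61Y/+, a log2 fold change of 0.86 ± 0.99 (SE, edgeR adjusted p = 0.656). Across the 16661 genes tested, the log2 levels of the MxCre libraries correlated at r = 0.92 and those of the Ptpn11D61Y/+ libraries at r = 0.959. Pairs of 1 library from each genotype correlated at r = 0.845 to 0.917. These correlations run over genes of the same libraries, which are not independent.

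Ptpn11 (ENSMUSG00000043733, GRCm38 chr5:121130533-121191397) was read first, since 1 allele is silenced in Ptpn11D61Y/+ mice. Its level was 3.72 and 5.03 log2 CPM in MxCre 1 and 2, and 5.71 and 4.91 log2 CPM in Ptpn11D61Y/+ 1 and 2. The groups overlapped, and the lower level that a silenced allele would give was not seen. The log2 fold change was 0.85 ± 0.59 (SE, n = 2 per genotype, edgeR quasi-likelihood test, adjusted p = 0.454), and p = 0.667 by a two-sided exact permutation test, in which 2 against 2 libraries cannot go below 1 in 3. Ptpn11 therefore does not check the genotype labels, and the libraries are called by what they are labelled throughout. In the S3 libraries Ptpn11 was at 6.26, 5.69 and 6.94 log2 CPM in animals 540, 815 and 640.

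The sorting marker gene Itgam (GRCm38 chr7:128062640-128118491) was present in all 4 control libraries. It was at 8.04 and 9.22 log2 CPM in MxCre 1 and 2 and at 6.99 and 7.80 log2 CPM in the libraries labelled Ptpn11D61Y/+. Both MxCre libraries lay above both Ptpn11D61Y/+ libraries, with a log2 fold change of −1.30 ± 0.92 (SE, edgeR adjusted p = 0.466). Its partner chain Itgb2 was at 8.20 and 9.45 against 8.60 and 9.09 log2 CPM, and the pan-leukocyte phosphatase gene Ptprc at 8.97 and 9.74 against 9.14 and 9.53 log2 CPM. For both of these genes the genotypes overlapped.

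No gene passed an adjusted p under 0.05 in the edgeR quasi-likelihood test of the 16661 genes (0%), and the smallest adjusted p was 0.123, shared by 129 genes. At an unadjusted p under 0.05, 1620 genes were higher in the libraries labelled Ptpn11D61Y/+ (9.72%) and 1524 were lower (9.15%). These 3144 genes became 2340 of 16415 without S3 animal 540, and 4836 of 19555 with the spread of all 21 libraries. Leaving out a control library also changed this number, which fell most without Ptpn11D61Y/+ 1. Such fits keep 1 library of a genotype, so their counts are not given. Both Ptpn11D61Y/+ libraries lay above both MxCre libraries for 5822 genes (34.9%) and below both for 4313 genes (25.9%). The counts of list members below are read against these shares. Counts of calls differed between the analyses. DESeq2 called 1885 genes on the same 7 libraries, 945 higher and 940 lower, and limma-voom called 0, with 3331 at an unadjusted p under 0.05. edgeR called 601 genes without a filter on low counts, 272 from the 4 control libraries alone, 1000 with the spread of all 21 libraries, and 696 without S3 animal 640. All these 5 analyses shared 150 genes, 50 higher and 100 lower in the libraries labelled Ptpn11D61Y/+. The biological coefficient of variation was 0.615 over the 7 libraries.

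**Figure D1:**
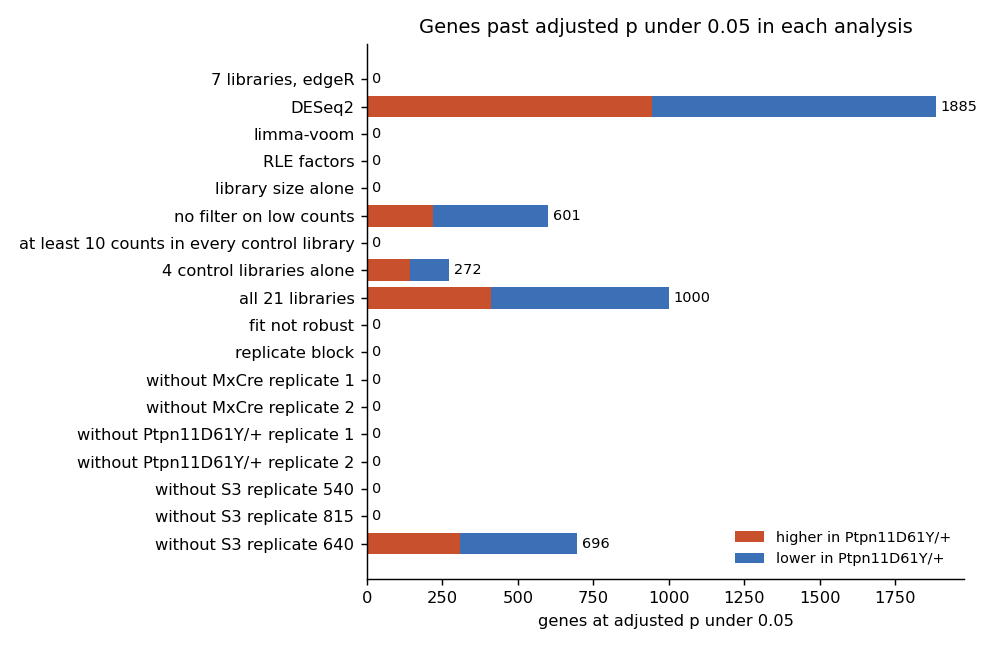
Number of genes past an adjusted p under 0.05 (x axis) in the edgeR analysis of 7 spleen libraries and under each alternative (y axis), split into higher (red) and lower (blue) in Ptpn11D61Y/+. DESeq2 called 1885 genes, 4 other alternatives called 272 to 1000, and the remaining ones called 0.

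Levels were scaled by TMM, which corrects for differences in composition. With library size alone, the median over all genes tested was 0.80 in place of 0.11 on the log2 fold change scale, so changes near 0 depended on the scaling. Gene lists are described by their median log2 fold change, Ptpn11D61Y/+ minus MxCre, beside this median of 0.11, and by their summed share of a library's counts. The 95% Wilson intervals of these shares reach at most 4.7% of the share to either side, and cover counting error only.

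B cell markers had the highest median difference of the 33 gene lists. The 20 B cell markers held 0.2% and 0.0366% of counts in MxCre 1 and 2, and 2.46% and 0.886% in the libraries labelled Ptpn11D61Y/+ 1 and 2. Both Ptpn11D61Y/+ libraries lay above both MxCre libraries for 19 of the 20, and 18 of 20 had an unadjusted p under 0.05, against 34.9% and 9.72% of all genes. None passed the adjusted p in the edgeR analysis of 16661 genes. The median log2 fold change was 3.43, and 2.84 to 4.35 when each control library was left out in turn. It was 4.35 without MxCre 1 and 3.22 without Ptpn11D61Y/+ 1.

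Cd79a and Cd79b encode the signalling chains of the B cell receptor. Cd79a (GRCm38 chr7:24897381-24902197) was at 5.81 and 4.46 log2 CPM in MxCre and at 8.54 and 9.34 log2 CPM in Ptpn11D61Y/+, a log2 fold change of 3.71 ± 1.33 (SE, edgeR adjusted p = 0.202). Cd79b was at 6.14 and 5.08 against 7.82 and 8.80 log2 CPM. The groups did not overlap for either gene. Ms4a1, which encodes CD20, was at 4.43 and 2.29 against 7.06 and 7.07 log2 CPM. MxCre 2 was the lowest of the 4 control libraries for each of these genes. The 1 marker whose genotypes overlapped was Vpreb3, named after its values were seen. It was at 2.38 and −0.96 against 2.02 and 2.77 log2 CPM.

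Ighm, the constant region of IgM and the B cell marker with the most counts in every library, was at 10.98 and 8.44 log2 CPM in MxCre and at 13.98 and 12.12 log2 CPM in Ptpn11D61Y/+. Its log2 fold change was 3.13 ± 1.11 (SE, edgeR adjusted p = 0.199). Immunoglobulin heavy constant genes together held 0.286% and 0.0437% of counts in MxCre and 2.22% and 0.699% in Ptpn11D61Y/+. Of these counts Ighm took 58.1% and 56.0% in MxCre, and 94.9% and 72.7% in Ptpn11D61Y/+. Light constant genes held 0.39% and 0.0246% in MxCre and 1.49% and 0.495% in Ptpn11D61Y/+. Most of these counts were of Igkc, the kappa constant gene, whose levels after scaling overlapped, at 12.15 and 8.29 log2 CPM in MxCre and 13.46 and 11.96 log2 CPM in Ptpn11D61Y/+ (log2 fold change 1.65 ± 1.29 SE, edgeR adjusted p = 0.507). Of 218 immunoglobulin variable segments, 67 and 100 had more than 3 counts in MxCre and 195 and 191 in Ptpn11D61Y/+. A single segment held 50.6% of variable segment counts in MxCre 1 and 55.8% in Ptpn11D61Y/+ 1, but 7.43% in MxCre 2 and 12.6% in Ptpn11D61Y/+ 2. Replicate 1 of each genotype was thus the one with most variable counts on 1 segment. Variable segments are similar in sequence, and how the counting treated reads that fit several of them is not given in the sources used here.

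Markers of B lineage subsets were mixed. Of 9 marginal zone and B-1 markers, 7 were higher in both Ptpn11D61Y/+ libraries and 2 lower in both, with a median log2 fold change of 1.80, and 1.91 to 2.48 with 1 control library left out. Cr2, the complement receptor CD21 and also 1 of the B cell markers above, was at 1.65 and 1.73 log2 CPM in MxCre and at 6.64 and 4.46 log2 CPM in Ptpn11D61Y/+. S1pr3, a sphingosine phosphate receptor that holds cells in the marginal zone, was at −0.91 and 0.43 against 3.43 and 3.64 log2 CPM. Cd1d1, which presents lipids to NKT cells, was at 5.31 and 5.25 log2 CPM in MxCre and at 5.12 and 4.67 log2 CPM in Ptpn11D61Y/+. Of 9 plasma cell markers, 2 lay above and 1 below in both Ptpn11D61Y/+ libraries, and 0 had an unadjusted p under 0.05. The plasma cell median was 0.92, and ran from −0.06 without Ptpn11D61Y/+ 1 to 3.21 without MxCre 1. Jchain, which joins IgM and IgA subunits, was at 9.03 and 5.40 log2 CPM in MxCre and at 9.67 and 7.68 log2 CPM in Ptpn11D61Y/+.

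MHC class II genes, which B cells, dendritic cells and macrophages use to present peptides, held 1.44% and 0.601% of counts in MxCre and 2.34% and 3.59% in Ptpn11D61Y/+. Of the 10 genes, 7 were higher in both Ptpn11D61Y/+ libraries and 1 had an unadjusted p under 0.05, with a median of 1.23, and 0.78 to 1.82 with 1 control library left out. That 1 was Ciita, the transcriptional activator of the class, named after its values were seen, at 4.81 and 3.75 against 7.29 and 7.18 log2 CPM. H2-Aa was at 11.15 and 10.07 log2 CPM in MxCre and at 11.54 and 12.29 log2 CPM in Ptpn11D61Y/+. H2-Eb1 was at 11.08 and 10.16 against 11.43 and 12.24 log2 CPM, and for H2-Ab1 the genotypes overlapped. Among 13 genes of B cell receptor signalling, many of which myeloid cells also use, the median was −0.13, 0.54 with library size alone and −0.23 to 0.02 with 1 control library left out. Blnk, an adaptor mostly of B cells, was at 5.75 and 4.26 log2 CPM in MxCre and at 7.29 and 6.79 log2 CPM in Ptpn11D61Y/+, whereas the kinase gene Btk overlapped at 6.65 and 6.96 against 6.74 and 6.72 log2 CPM.

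**Figure D2:**
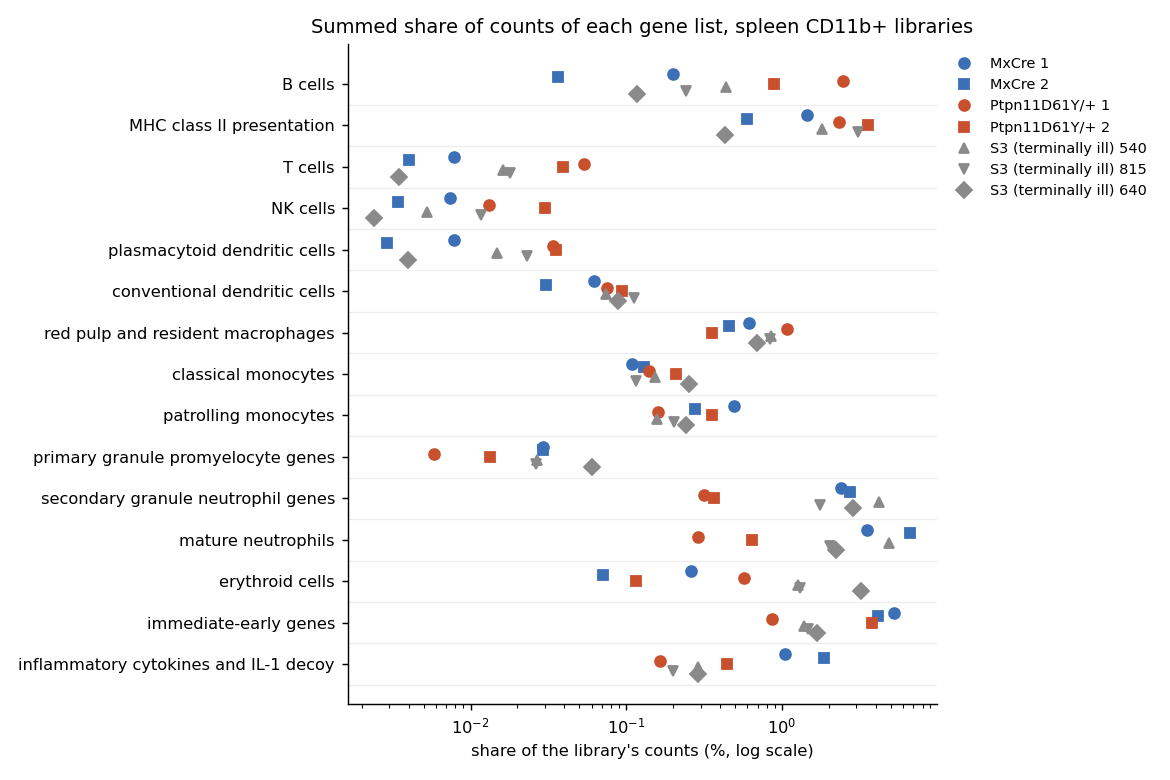
Summed share of a library's counts (x axis, percent, log scale) for 15 gene lists (y axis) in each spleen CD11b+ library. Blue marks MxCre, red Ptpn11D61Y/+ and grey S3, and the shape marks the library. B cell markers held 0.0366% to 0.2% in MxCre and 0.886% to 2.46% in Ptpn11D61Y/+, and mature neutrophil genes 3.53% to 6.63% and 0.289% to 0.646%.

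T cell RNA was scarce in all 4 libraries. The 20 T cell markers held 0.00788% and 0.00405% of counts in MxCre and 0.0538% and 0.0393% in Ptpn11D61Y/+. Both Ptpn11D61Y/+ libraries lay above both MxCre libraries for 18 of 20 and below both for 1, and 10 had an unadjusted p under 0.05, with a median log2 fold change of 2.57, and 2.19 to 2.80 with 1 control library left out. Cd3e, a chain of the T cell receptor complex, had 0 and 10 counts in MxCre and 230 and 97 counts in Ptpn11D61Y/+. Cd3g, another chain of it, had 0 and 65 counts in MxCre and 342 and 314 counts in Ptpn11D61Y/+. In MxCre 1, 4 T cell markers (Cd3e, Cd3g, Cd8b1 and Bcl11b) had at most 3 counts, and none did in the other 3 control libraries. The 1 marker lower in both, Cd3d, was at 2.38 and 2.97 against 1.75 and 1.78 log2 CPM. T cell receptor constant genes gave 146 and 167 counts in MxCre and 1305 and 1237 counts in Ptpn11D61Y/+, and variable segments 0 and 26 against 229 and 141 counts.

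NK cell markers were higher in both Ptpn11D61Y/+ libraries for 6 of 11 genes, and 4 of 11 had an unadjusted p under 0.05. They held 0.00742% and 0.00341% of counts in MxCre and 0.0132% and 0.0303% in Ptpn11D61Y/+, with a median of 1.82, which was 0.65 without Ptpn11D61Y/+ 2 and up to 2.46 without Ptpn11D61Y/+ 1. Ncr1, an activating receptor of NK cells, had 0 and 28 counts in MxCre and 165 and 600 counts in Ptpn11D61Y/+. Klrb1c, which encodes NK1.1, was at 0.60 and 0.64 against 1.93 and 3.75 log2 CPM. Ptpn11D61Y/+ 2 was the highest of the 4 control libraries for both genes.

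Mature neutrophil genes had the lowest median difference of the 33 gene lists. The 10 mature neutrophil genes held 3.53% and 6.63% of counts in MxCre 1 and 2, and 0.289% and 0.646% in the libraries labelled Ptpn11D61Y/+ 1 and 2. All 10 were lower in both Ptpn11D61Y/+ libraries and had an unadjusted p under 0.05, against 25.9% and 9.15% of all genes. None passed the adjusted p in the edgeR analysis of 16661 genes. The median log2 fold change was −3.83, and −4.87 to −2.97 when each control library was left out in turn. It was −4.36 without MxCre 1 and −3.29 without Ptpn11D61Y/+ 1.

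S100a8 and S100a9 encode calprotectin, the major cytosolic protein of neutrophils. S100a8 (GRCm38 chr3:90668978-90670035) was at 13.54 and 14.36 log2 CPM in MxCre and at 8.93 and 10.22 log2 CPM in Ptpn11D61Y/+, a log2 fold change of −4.29 ± 0.87 (SE, edgeR adjusted p = 0.124). S100a9 was at 14.38 and 15.62 against 10.19 and 11.45 log2 CPM, and was the gene of this list with the most counts in each of the 4 control libraries. The groups did not overlap, and Ptpn11D61Y/+ 1 was the lowest of the 4 control libraries for both genes. Csf3r, the receptor of the granulocyte growth factor G-CSF, was at 11.06 and 12.42 log2 CPM in MxCre and at 7.35 and 8.73 log2 CPM in Ptpn11D61Y/+, a log2 fold change of −3.70 ± 0.76 (SE, edgeR adjusted p = 0.124). Il1r2, which is also in this list and in that of cytokines, is described with the genes of smallest p. The log2 fold changes were −3.63 for Retnlg, a resistin-like peptide, −3.29 for Cxcr2, a chemokine receptor, and −3.27 for Mmp9, a gelatinase of tertiary granules.

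Genes of earlier neutrophil stages differed in the same direction. Secondary granule genes, expressed by myelocytes and metamyelocytes, held 2.41% and 2.75% of counts in MxCre and 0.317% and 0.364% in Ptpn11D61Y/+. All 9 were lower in both Ptpn11D61Y/+ libraries and had an unadjusted p under 0.05, with a median of −3.34, and −3.53 to −3.06 when each control library was left out. Ltf, lactoferrin, was at 12.64 and 13.29 log2 CPM in MxCre and at 9.17 and 9.36 log2 CPM in Ptpn11D61Y/+. Camp, the cathelicidin peptide, was at 13.30 and 13.14 against 8.31 and 9.28 log2 CPM. The genotypes did not overlap for either gene. The log2 fold changes were −3.73 for Ltf, −4.35 for Camp, −3.34 for Ngp and −3.69 for Lcn2, an iron-sequestering lipocalin, with edgeR adjusted p from 0.123 to 0.127.

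Primary granule genes, expressed by promyelocytes, held 0.0293% and 0.0294% of counts in MxCre and 0.00582% and 0.0134% in Ptpn11D61Y/+. Of the 6, 5 were lower in both Ptpn11D61Y/+ libraries and 4 had an unadjusted p under 0.05, with a median of −2.10, and −2.93 to −1.49 with 1 control library left out. Mpo, myeloperoxidase, was at 5.99 and 5.67 log2 CPM in MxCre and at 3.50 and 4.97 log2 CPM in Ptpn11D61Y/+. Elane, neutrophil elastase, was at 5.77 and 5.57 against 3.14 and 4.48 log2 CPM. Ptpn11D61Y/+ 1 was the lowest of the 4 control libraries for both. Ctsg overlapped, at 1.98 and 2.47 against 0.54 and 2.26 log2 CPM.

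**Figure D3:**
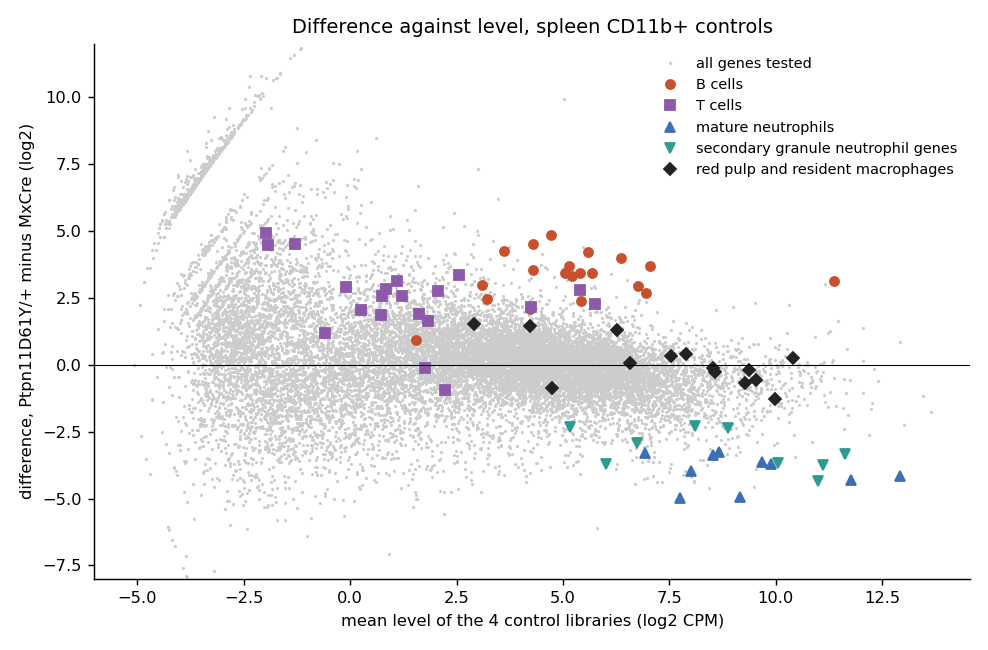
Log2 fold change, Ptpn11D61Y/+ minus MxCre (y axis), against mean level in the 4 control libraries (x axis, log2 CPM), for the genes tested (grey) and 5 marker lists. B cell (red) and T cell (purple) markers lie mostly above 0, with medians of 3.43 and 2.57, all mature (blue) and secondary granule (green) neutrophil genes lie below it, with medians of −3.83 and −3.34, and red pulp macrophage genes (black) lie around 0. No gene passed the adjusted p in the edgeR analysis of 16661 genes, whereas DESeq2 called 1885 and some edgeR alternatives also made calls. The curved bands at the left are genes with 0 counts in a library.

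Monocyte genes gave overlapping levels for the most part. Of 7 classical monocyte markers, 0 were higher in both Ptpn11D61Y/+ libraries and 1 lower in both, and 0 had an unadjusted p under 0.05. Ccr2, the chemokine receptor that lets these monocytes leave the marrow, was at 6.67 and 6.73 log2 CPM in MxCre and at 4.96 and 7.82 log2 CPM in Ptpn11D61Y/+. Vcan, a proteoglycan, was at 2.99 and 4.81 against 1.30 and 4.47 log2 CPM. The Ptpn11D61Y/+ libraries thus lay on both sides of MxCre for Ccr2, and Vcan overlapped. The median of 0.31 became −1.71 without Ptpn11D61Y/+ 2 and 1.13 without Ptpn11D61Y/+ 1. Csf1r, the M-CSF receptor, named after its values were seen, lay between 9.47 and 9.94 log2 CPM in the 4 libraries, and the genotypes overlapped. Patrolling monocyte markers had a median of −0.53, which was 0.09 with library size alone and −0.93 to −0.09 with 1 control library left out. Cx3cr1, the fractalkine receptor, was at 7.89 and 5.78 log2 CPM in MxCre and at 6.13 and 6.62 log2 CPM in Ptpn11D61Y/+. Nr4a1, which these monocytes need and which is also an immediate-early gene, was at 12.24 and 11.68 against 9.41 and 11.27 log2 CPM.

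Macrophage genes of the red pulp did not separate the genotypes. The 14 markers held 0.616% and 0.454% of counts in MxCre and 1.08% and 0.358% in Ptpn11D61Y/+, and 0 of 14 had an unadjusted p under 0.05. Spic, the transcription factor of these macrophages, was at 6.87 and 6.40 log2 CPM in MxCre and at 7.33 and 5.66 log2 CPM in Ptpn11D61Y/+. Vcam1 was at 9.87 and 9.46 against 9.48 and 8.30 log2 CPM, and Cd5l, a macrophage-secreted scavenger protein, at 8.84 and 8.75 against 9.04 and 7.70 log2 CPM. For 11 of the 14 the genotypes overlapped, with Ptpn11D61Y/+ 1 above Ptpn11D61Y/+ 2. The median of −0.03 was 0.68 with library size alone, −0.96 without Ptpn11D61Y/+ 1 and 0.50 without Ptpn11D61Y/+ 2.

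Dendritic cell genes were higher in both Ptpn11D61Y/+ libraries for 4 of 12 conventional and 5 of 7 plasmacytoid markers, with medians of 0.63 and 1.47. These were 0.16 to 1.51 and 0.98 to 2.49 with 1 control library left out. The first share is near the 34.9% of all genes. Of each list, 1 gene had an unadjusted p under 0.05. These were Itgae, the CD103 integrin chain, at −0.48 and −1.39 against 2.38 and 1.55 log2 CPM, and Pacsin1 at −0.63 and −1.39 against 2.61 and 2.28 log2 CPM, both named after their values were seen. Clec9a, a receptor of cross-presenting dendritic cells for dead cells, was at 0.84 and −0.64 log2 CPM in MxCre and at 3.07 and 2.06 log2 CPM in Ptpn11D61Y/+. Siglech, a receptor of plasmacytoid dendritic cells, overlapped at 1.55 and −0.18 against 3.08 and 0.25 log2 CPM. Ly6d, which B lineage cells also express, was at 5.62 and 4.18 against 7.24 and 7.91 log2 CPM.

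Markers of rarer lineages mostly overlapped between the genotypes. Erythroid markers held 0.259% and 0.0711% of counts in MxCre and 0.572% and 0.115% in Ptpn11D61Y/+, and 13 of the 14 tested overlapped. The globin gene Hba-a1 was at 10.09 and 8.38 log2 CPM in MxCre and at 10.41 and 8.14 log2 CPM in Ptpn11D61Y/+, so that replicate 1 was the higher in each genotype. Hba-a1 and Hba-a2 are nearly identical, and reads may be split between them. The 1 that did not overlap was Alas2, the first enzyme of heme synthesis in red cells, named after its values were seen, at 2.48 and 2.52 against 6.35 and 3.80 log2 CPM. The erythroid median of 1.08 became −1.18 without Ptpn11D61Y/+ 1 and 1.84 without Ptpn11D61Y/+ 2. Of 11 platelet and megakaryocyte markers, 8 overlapped, and 3 were higher in both Ptpn11D61Y/+ libraries with an unadjusted p under 0.05. Among them Treml1, a receptor of platelet granules named after its values were seen, had 0 and 11 counts in MxCre and 337 and 26 counts in Ptpn11D61Y/+. Ppbp, a platelet chemokine, had 0 and 12 counts in MxCre and 1381 and 56 counts in Ptpn11D61Y/+, and the list's median of 1.19 became −0.01 without Ptpn11D61Y/+ 1 and 5.10 without MxCre 2.

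Of 5 eosinophil markers 1 was higher in both Ptpn11D61Y/+ libraries and 0 had an unadjusted p under 0.05. Of 6 basophil and mast cell markers 1 was higher and 1 lower in both Ptpn11D61Y/+ libraries. Their median log2 fold change was 1.12, and 5 of the 6 were positive. The lower one, with an unadjusted p under 0.05, was Hdc, the histamine-forming enzyme that neutrophils also express, named after its values were seen. Hdc was at 9.63 and 11.57 log2 CPM in MxCre and at 5.80 and 6.69 log2 CPM in Ptpn11D61Y/+. The protease gene Mcpt8 of the same list overlapped at 1.66 and −0.03 against −0.60 and 2.82 log2 CPM. Stem and progenitor markers had a median of 0.14 over 7 genes, which was −0.34 without Ptpn11D61Y/+ 2 and 0.90 without Ptpn11D61Y/+ 1. Kit, the stem cell factor receptor, was at 4.17 and 3.78 log2 CPM in MxCre and at 5.79 and 5.96 log2 CPM in Ptpn11D61Y/+, and Cd34 overlapped at 2.27 and 0.49 against 0.35 and 1.54 log2 CPM. Stroma and endothelium markers held at most 0.0247% of counts in a control library, and 0 of 9 had an unadjusted p under 0.05.

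The study's questions concern signalling from SHP2 and survival of myeloid cells, so these genes were read next. Of 17 SHP2 and RAS pathway genes, 3 were higher and 8 lower in both Ptpn11D61Y/+ libraries, and 3 of the lower ones had an unadjusted p under 0.05. Their median was −0.52, 0.17 with library size alone and −0.67 to −0.14 with 1 control library left out. Gab2, a scaffold that recruits SHP2, was at 5.96 and 6.71 log2 CPM in MxCre and at 5.77 and 5.11 log2 CPM in Ptpn11D61Y/+, a log2 fold change of −0.91 ± 0.47 (SE, edgeR adjusted p = 0.331). Grb2, the adaptor to the RAS activator SOS, overlapped at 8.24 and 8.53 against 8.57 and 8.48 log2 CPM. ERK output genes, induced when ERK is active, were mixed, with 4 of 14 higher and 5 lower in both Ptpn11D61Y/+ libraries. At an unadjusted p under 0.05, 3 were higher and 5 lower. The ERK phosphatase genes Dusp6 and Dusp5 were lower, and Dusp4 higher. Dusp6 was at 8.53 and 8.13 against 5.19 and 6.51 log2 CPM, and Dusp5 at 9.37 and 8.98 against 5.90 and 7.61 log2 CPM. Dusp4 was at 1.08 and 1.58 log2 CPM in MxCre and at 2.86 and 3.94 log2 CPM in Ptpn11D61Y/+. The ERK list's median of −0.47 was 0.19 with library size alone and −0.86 to −0.31 with 1 control library left out. Dusp6 and Dusp5 were lower beside the mature neutrophil genes (median −3.83), whose part in the SHP2 and ERK lists was not tested.

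Of 17 BCL-2 family genes tested, which set the threshold of apoptosis, 3 were higher and 7 lower in both Ptpn11D61Y/+ libraries. At an unadjusted p under 0.05, 2 were higher and 4 lower. Mcl1, an anti-apoptotic member on which neutrophils depend, was at 10.91 and 11.61 log2 CPM in MxCre and at 8.82 and 9.90 log2 CPM in Ptpn11D61Y/+, a log2 fold change of −1.85 ± 0.59 (SE, edgeR adjusted p = 0.172). Bcl2l1, which encodes the anti-apoptotic BCL-XL, was at 5.94 and 6.85 against 5.40 and 4.74 log2 CPM, a log2 fold change of −1.36 ± 0.59 (SE, edgeR adjusted p = 0.263). The genotypes did not overlap for these 2 genes. Bcl2, the founding member of the family, overlapped at 5.04 and 3.62 against 4.88 and 4.95 log2 CPM. The family's median of −0.17 was 0.48 with library size alone, 0.02 without Ptpn11D61Y/+ 1 and −0.51 without Ptpn11D61Y/+ 2. Neutrophil genes moved with Mcl1 and Bcl2l1 across the genotypes, and their part in these values was not tested.

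Genes that respond to stimulation within minutes were mostly lower in the libraries labelled Ptpn11D61Y/+, and more so in Ptpn11D61Y/+ 1. The 21 immediate-early genes held 5.21% and 4.12% of counts in MxCre and 0.862% and 3.77% in Ptpn11D61Y/+. Of the 21, 15 were lower in both Ptpn11D61Y/+ libraries and 2 higher, and 4 had an unadjusted p under 0.05. Junb, an AP-1 subunit and 1 of the 5 genes with the most counts in MxCre 1, was at 13.87 and 13.77 log2 CPM in MxCre and at 9.09 and 12.03 log2 CPM in Ptpn11D61Y/+. Fos and Jun, the other core AP-1 genes, overlapped, with Fos at 10.07 and 10.63 against 8.28 and 11.12 log2 CPM. The median of −1.17 was −0.49 without Ptpn11D61Y/+ 1 and −2.58 without Ptpn11D61Y/+ 2. Ptpn11D61Y/+ 1 was also the library with 3.79% of mitochondrial counts, and the one in which mature neutrophil genes held their smallest share, at 0.289%. The part of either in these values was not tested. Heat shock genes, which also respond to handling of cells, had 5 of 8 lower in both and a median of −0.86, which was −0.25 without MxCre 1 and −1.29 without MxCre 2.

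NF-kB genes were lower in both Ptpn11D61Y/+ libraries for 9 of 18 and higher in both for 2. At an unadjusted p under 0.05, 8 were lower and 1 higher. That 1 was Nfkb1, the p50 subunit gene, named after its values were seen, at 6.72 and 7.03 against 8.25 and 8.14 log2 CPM. Nfkbia, the inhibitor that NF-kB induces to switch itself off, was at 12.67 and 13.41 log2 CPM in MxCre and at 8.40 and 10.10 log2 CPM in Ptpn11D61Y/+. Its log2 fold change was −3.60 ± 0.74 (SE, edgeR adjusted p = 0.124), and that of Nfkbib, a related inhibitor, −1.70 ± 0.43 (SE, edgeR adjusted p = 0.134). Nfkbie overlapped, at 6.95 and 7.63 against 6.96 and 6.87 log2 CPM. The median of −0.73 was −0.08 with library size alone, and ran from −1.32 without Ptpn11D61Y/+ 2 to −0.59 without Ptpn11D61Y/+ 1. Mature neutrophil genes, at a median of −3.83 with 10 of 10 lower in both, moved with this list, and their part in it was not tested.

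Among 20 inflammatory cytokine genes with the IL-1 decoy receptor, 15 were lower in both Ptpn11D61Y/+ libraries and 12 had an unadjusted p under 0.05, with a median of −2.26, and −3.82 to −1.81 with 1 control library left out. They held 1.04% and 1.86% of counts in MxCre and 0.165% and 0.441% in Ptpn11D61Y/+. Il1b, the inflammatory cytokine IL-1 beta, was at 11.60 and 12.96 log2 CPM in MxCre and at 7.55 and 9.67 log2 CPM in Ptpn11D61Y/+, a log2 fold change of −3.46 ± 0.93 (SE, edgeR adjusted p = 0.143). Il1rn, the antagonist of the IL-1 receptor, was at 8.04 and 8.96 against 5.59 and 5.14 log2 CPM. Il1a overlapped, at 2.51 and 3.64 against 3.23 and 1.07 log2 CPM. Neutrophils and monocytes are major sources of Il1b and Il1rn, and the part of the lower neutrophil genes in these values was not tested.

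Interferon-stimulated genes did not separate the genotypes as a list. Of the 21, 4 were higher and 9 lower in both Ptpn11D61Y/+ libraries, 1 and 3 of them at an unadjusted p under 0.05, and the median of −0.40 was 0.32 with library size alone and −0.67 to −0.05 with 1 control library left out. Ifit1, which binds viral RNA, was at 3.40 and 4.61 log2 CPM in MxCre and at 3.23 and 2.79 log2 CPM in Ptpn11D61Y/+. Ifit2 was at 3.29 and 3.07 against 4.13 and 3.35 log2 CPM. Among S-phase genes 8 of 17 were higher in both Ptpn11D61Y/+ libraries, against 34.9% of all genes, with a median of 0.41, and 0.42 to 0.64 with 1 control library left out. At an unadjusted p under 0.05, 1 of the 17 was higher and 0 were lower. Mcm2 and Mcm3, subunits of the replicative helicase, were at 5.04 and 4.38 against 5.97 and 5.30 log2 CPM and at 5.11 and 5.20 against 6.64 and 6.20 log2 CPM. Among G2/M genes 2 of 18 were higher and 7 lower, and the median of −0.18 was 0.52 with library size alone and −0.36 to 0.07 with 1 control library left out.

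The 24 genes of smallest p, 12 in each direction, were taken from those that averaged 3 log2 CPM or more and whose genotypes did not overlap, so their separation is a description. All had an edgeR adjusted p of 0.123. Of the 24, 21 were among the 150 genes called in all 5 analyses that made calls. Those analyses refit the same control libraries, so this overlap is not independent support. On the higher side stood Cd72, a B cell surface protein that tempers receptor signalling (GRCm38 chr4:43446462-43454628). It was at 1.70 and 2.78 log2 CPM in MxCre and at 6.95 and 7.42 log2 CPM in Ptpn11D61Y/+, a log2 fold change of 4.87 ± 0.59 (SE). Snn, stannin, was at 3.42 and 2.99 against 6.92 and 6.70 log2 CPM. For both genes the S3 libraries lay above MxCre too, at 7.05 to 7.96 log2 CPM for Cd72 and 5.48 to 6.03 log2 CPM for Snn. The log2 fold changes of the rest were 3.58 for Wdr6, 3.30 for Myo1e, a class I myosin, 3.01 for Il2rb, a receptor chain of IL-2 and IL-15 on NK and T cells, 2.64 for Phgdh, the first enzyme of serine synthesis, 2.58 for Lat2, an adaptor of B and mast cells, 2.53 for Pml of nuclear bodies, 2.46 for Cyb561a3, 2.18 for Rgs12, 2.10 for Parp1, a DNA damage sensor, and 2.04 for Coro2a.

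On the lower side the largest difference was that of Rhov, at 8.14 and 9.67 log2 CPM in MxCre and at 1.74 and 3.65 log2 CPM in Ptpn11D61Y/+, a log2 fold change of −6.12 ± 0.87 (SE). Il1r2, the decoy receptor of IL-1 (GRCm38 chr1:40074079-40125231), was at 11.03 and 12.20 against 6.17 and 7.24 log2 CPM, a log2 fold change of −4.93 ± 0.74 (SE). Phlda1, an ERK output gene, was at 6.69 and 6.08 log2 CPM in MxCre and at 1.24 and 2.55 log2 CPM in Ptpn11D61Y/+. For these 3 genes every S3 library lay below both MxCre libraries, at 2.71 to 3.28 log2 CPM for Rhov, 6.05 to 6.88 log2 CPM for Il1r2 and 2.57 to 2.99 log2 CPM for Phlda1. The 24 genes were chosen by their distance from these same MxCre libraries, and the share over all genes is not given here. The position of S3 is therefore a description of these genes alone. Over the 24 genes, all S3 libraries lay above both MxCre libraries for the 12 higher ones and below both for 11 of the 12 lower ones. The exception was Orm1, an acute-phase protein, at 4.99 to 6.07 log2 CPM in S3 against 5.46 and 6.23 log2 CPM in MxCre. S3 lay between the control genotypes for 8 of the higher and 7 of the lower genes, among them Tmem40, at 4.90 to 5.85 log2 CPM in S3 against 5.995 and 6.53 log2 CPM in MxCre and 1.74 and 2.64 log2 CPM in Ptpn11D61Y/+. The log2 fold changes of the rest were −4.36 for Gadd45a, a stress-induced growth arrest gene, −4.12 for Gpat3, an enzyme of triglyceride synthesis, −4.09 for Gm15832, −4.04 for Tmem40, −3.83 for Orm1, −3.44 for Slc27a4, a fatty acid transporter, −3.34 for B230208H11Rik, −2.77 for Map2k3, a kinase of the p38 pathway, and −2.35 for Irak2, a kinase of IL-1 and Toll-like receptor signalling. Of the 24 genes, 15 overlap an annotated neighbour. Snn, Cd72, Wdr6, Cyb561a3, Lat2, Gadd45a, Phlda1, Coro2a and Pml do so on the other strand alone (with Litaf, Tesk1, Dalrd3, Tkfc, Rfc2, E230016M11Rik, Gm28592, Gm16731 and Mir6385 among the neighbours). Gm15832, Tmem40 and Parp1 overlap Rnf149, Gm27853 and Mir6904 on the same strand. Il1r2, Gpat3 and Rgs12 have neighbours on both strands, with Gm16894 and Gm37347 at Il1r2. Many genes described earlier overlap neighbours too, among them Ptpn11 (Gm42930), Junb (Prdx2), Nfkbib (Sirt2), Nfkb1 (Gm43430), Il1b (Il1bos), Ciita (Dexi), Itgae (Haspin), Clec9a (Clec1b), Ms4a1 (4930526L06Rik), Mpo (Gm11505), Csf1r (Hmgxb3) and Alas2 (Apex2). Whether the counting used strand is not given in the sources used here, so the counts of any gene that overlaps another may hold reads of its neighbour.

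**Figure D4:**
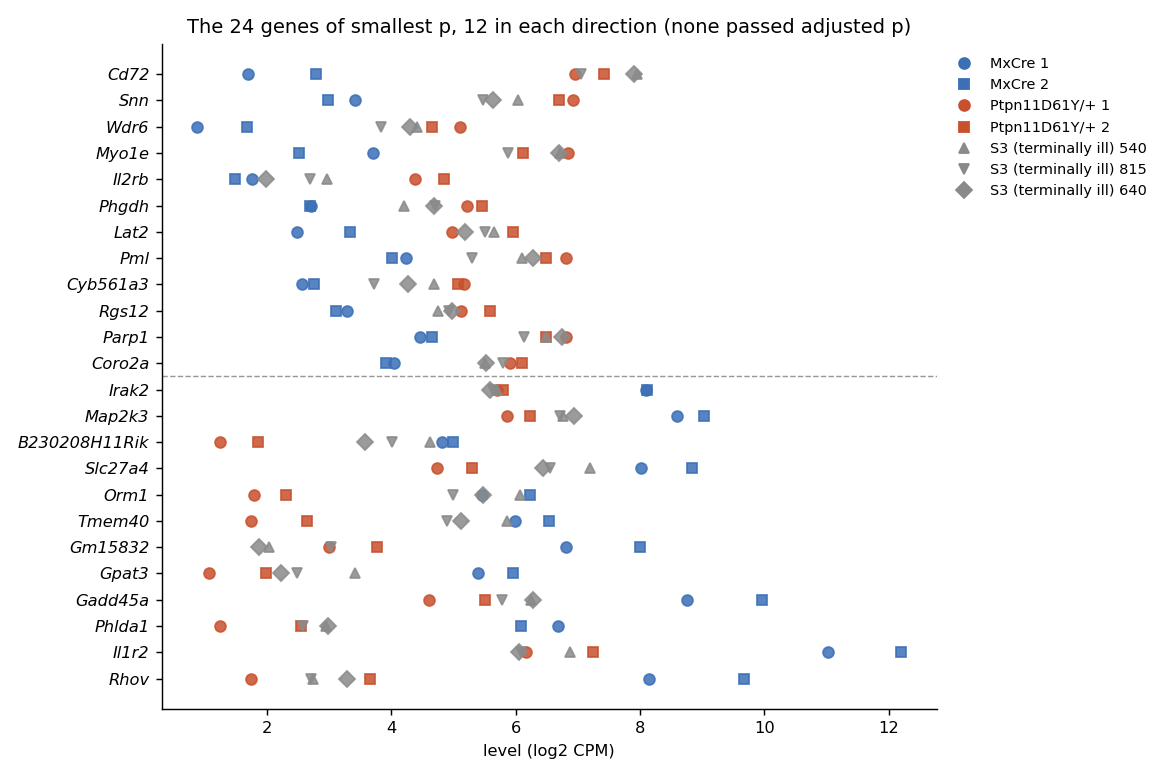
Level (x axis, log2 CPM) of the 24 genes of smallest p (y axis) in the 7 spleen libraries, with 12 genes higher in Ptpn11D61Y/+ above the dashed line and 12 lower below it. Blue marks MxCre, red Ptpn11D61Y/+ and grey S3. The genotypes do not overlap because the genes were chosen so, and none passed an adjusted p of 0.05 in the edgeR analysis of these libraries. For Il1r2 the S3 libraries lie at 6.05 to 6.88 while MxCre lies at 11.03 and 12.20.

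The S3 libraries were not tested against either control, as both comparisons would share these libraries, but their levels stand beside them. For mature neutrophil genes S3 held 4.87%, 2.05% and 2.21% of counts in animals 540, 815 and 640, below MxCre 2 and above both libraries labelled Ptpn11D61Y/+. For B cell markers it held 0.439%, 0.243% and 0.117%, below both libraries labelled Ptpn11D61Y/+. Animal 540 and animal 815 lay above both MxCre libraries and animal 640 between them. For secondary granule genes S3 held 4.20%, 1.75% and 2.87%, each above both libraries labelled Ptpn11D61Y/+.

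CD11b+ cells of the BM were measured in the same genotypes, with 2 libraries each, and the difference between the tissues was tested itself. Of 17920 genes, 0 passed an adjusted p under 0.05 in the edgeR interaction test (0%), with a smallest adjusted p of 0.691, and 1285 had an unadjusted p under 0.05 (7.17%). With the spread of all 21 libraries, 2583 of 19555 genes had an unadjusted p under 0.05. Leaving out a control library moved the number of 1285 up or down, depending on the library. Those fits keep 1 library in a group, so their counts are not given. DESeq2 called 75, of which 44 had the higher difference in the spleen. Nothing can thus be called particular to the spleen by edgeR. Both BM MxCre libraries call for care. BM MxCre 2 held RNA of both sex chromosomes, with Xist at 54.1 CPM and Ddx3y at 6.74 CPM. In BM MxCre 1 the red pulp macrophage list held 1.51% of counts, against 0.0527%, 0.0492% and 0.0568% in BM MxCre 2 and the BM Ptpn11D61Y/+ libraries 1 and 2. BM MxCre 1 also held 4.02% in immediate-early genes, against 0.839% to 1.44% in those 3 libraries, and 1.21% in inflammatory cytokine genes, against 0.109% to 0.175%. Erythroid markers held 3.50% there against 12.4% to 16.2%, and G2/M genes 0.0391% against 0.329% to 0.399%. Of the 20 T cell markers, 8 had at most 3 counts in it and 0 in the other 3, and counts were found for 14885 genes, against 17493 to 21425. Spleen minus BM medians are therefore given with and without these libraries. In BM, too, 0 genes passed the edgeR adjusted p for Ptpn11D61Y/+ against MxCre, and 2086 had an unadjusted p under 0.05.

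B cell markers had a median log2 fold change of 1.86 in BM beside 3.43 in the spleen. Their median spleen minus BM difference was 1.86, 2.52 without BM MxCre 1 and 0.40 without BM MxCre 2, where the median of all genes was 0.07. Mature neutrophil genes had a median of −0.71 in BM beside −3.83 in the spleen, and a median difference of −2.69, which was −4.01 without BM MxCre 1 and −2.27 without BM MxCre 2. Secondary granule genes were on opposite sides, at 0.72 in BM and −3.34 in the spleen. Their median difference was −3.69, −3.21 without BM MxCre 1 and −4.67 without BM MxCre 2. All 9 had an unadjusted interaction p under 0.05 in edgeR, against 7.17% of all genes, with none past its adjusted p. Red pulp macrophage genes, at −4.01 in BM and −0.03 in the spleen, had a median difference of 3.95 that was 0.07 without BM MxCre 1 and 4.89 without BM MxCre 2. T cell markers had one of 1.32 that was 2.10 without BM MxCre 1 and −3.42 without BM MxCre 2.

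**Figure D5:**
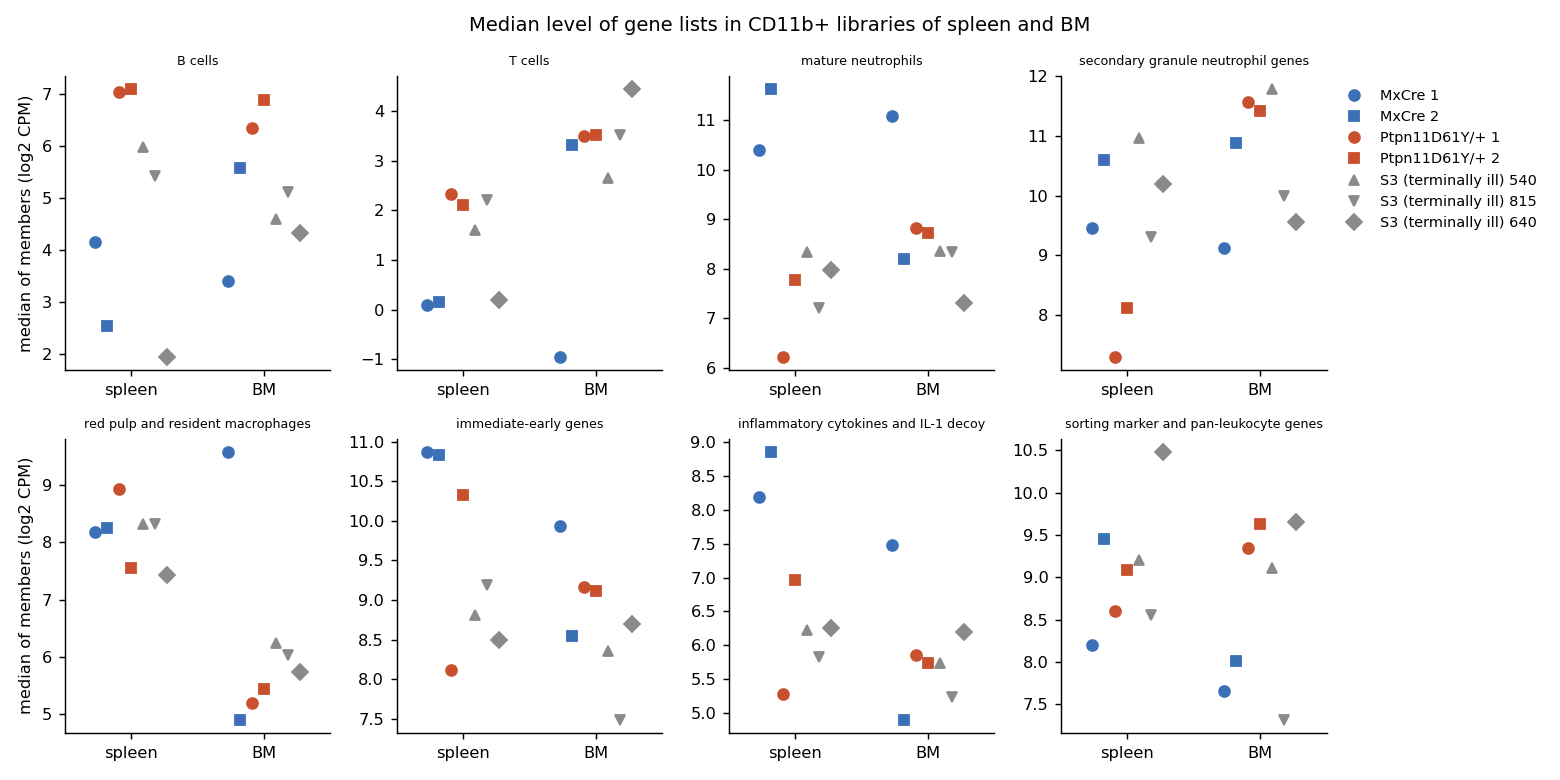
Median level of the members of 8 gene lists (y axes, log2 CPM) in each CD11b+ library of spleen and BM (x axis). Blue marks MxCre, red Ptpn11D61Y/+ and grey S3, and the shape marks the library. Secondary granule genes lie at 9.46 and 10.60 in MxCre and 7.30 and 8.12 in Ptpn11D61Y/+ in the spleen, but at 9.12 and 10.88 against 11.56 and 11.42 in BM, and BM MxCre 1 stands apart for macrophage genes at 9.58.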

How the data were processed

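RNA of CD11b+ cells was sequenced by the authors as 100 bp paired-end reads from TruSeq Stranded mRNA libraries. Per the methods and the submitters' processing notes, reads were trimmed with Trim Galore 0.6.5 and mapped to GRCm38 with STAR 2.5.3a. The authors deposited 1 table of raw counts per Ensembl gene and library. The counting program, annotation release and strand setting are not given in the sources used here. Each table holds 45706 genes, of which 45143 have a symbol.

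Genes were kept by filterByExpr over the 3 spleen groups, which left 16661 with 99.97% of counts. The 7 spleen libraries were normalized by TMM (factors 0.703 to 1.301) and fitted with edgeR 4.0.16 in R 4.3.3 (robust quasi-likelihood, 4 residual degrees of freedom, Benjamini-Hochberg adjustment over all genes, calls at adjusted p under 0.05). The tissue comparison used 14 CD11b+ libraries. Gene levels were computed as log2 CPM after adding a prior count of 2, and shares use unscaled counts. DESeq2 1.42.0, limma 3.58.1, other filters, scalings and sets of libraries were alternatives, and the scripts were tested on simulated data. Positions come from the GENCODE annotation of GRCm38.

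The libraries, the 33 gene lists and the tests were chosen with earlier results of these data known. Genes are named as Ptpn11, Itgam, the 5 genes with most counts in a library, up to 4 per cell type list and 3 per pathway list in written order, and the 24 of smallest p described above, and genes outside this rule are marked as named after their values were seen. A B cell marker that the rule names is not reported here.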

Additional observations from a re-analysis of the deposited data

Results flagged for a closer look

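For 1 of 33 gene lists and 4 of 80 single genes looked at, the libraries labelled Ptpn11D61Y/+ lay on one side of both MxCre libraries in the spleen and on the other side in BM. Of all 16624 genes tested in both, 1049 (6.31%) had such opposite orders, so the share among the genes looked at (5.0%) was near that of all genes. The order itself was not tested. The edgeR interaction test of the genes gave adjusted p of 0.691 or more. For secondary granule neutrophil genes the median spleen minus BM difference was −3.69 on the log2 scale, and for Ngp, a granule protein of this list, it was −4.19 ± 1.05 (SE). Itgam differed by −2.91 ± 1.27 (SE), as it was at 7.66 and 8.01 log2 CPM in BM MxCre and at 9.35 and 9.68 log2 CPM in BM Ptpn11D61Y/+. The difference was 2.74 ± 0.93 (SE) for Blnk, which was at 7.13 and 7.15 log2 CPM in BM MxCre and at 6.31 and 6.37 log2 CPM in BM Ptpn11D61Y/+. It was 3.76 ± 1.87 (SE) for Clec9a, which overlaps Clec1b on the same strand.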

How the results depend on the processing

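The edgeR count of genes past the adjusted p was 0 and changed to 1885 with DESeq2, 601 without a filter on low counts, 272 with the 4 control libraries alone and 1000 with all 21 libraries. It was 0 with limma-voom, RLE factors, library size alone, at least 10 counts in every control library and a fit that was not robust. Leaving out 1 library in turn gave 0 to 696, where 696 came without S3 animal 640 and 0 without any other library. The cause was not tested. Ptpn11 had a log2 fold change of 0.85 to 1.60 under the alternatives that kept all 7 libraries and 0.34 to 1.65 when 1 library was left out, and never passed the threshold. For the spleen minus BM difference the count was 0, 75 with DESeq2, and 0 in each analysis without 1 control library. The genotypes share replicate numbers but no animals, and deviations of same-numbered libraries correlated at −0.006. With the replicate number as a block the spleen count was 0, with 2686 genes at an unadjusted p under 0.05, the Ptpn11 log2 fold change 0.94 and the tissue count 0. No gene given with a log2 fold change reversed its direction, and some genes given by levels alone were not recomputed. The list medians without single BM MxCre libraries were chosen after seeing the data. Depth was at least 52965938 counts in each spleen control library and 38436746 in each BM one, and limits values near a count of 0.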

Other observations

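The protein-coding genes among those tested were split into 4 equal groups by annotated exon length. Median lengths were 1.83, 3.46, 5.34 and 8.96 kb. The median log2 fold change, Ptpn11D61Y/+ minus MxCre, was −0.15, 0.13, 0.16 and 0.34 from the shortest to the longest group. Between the replicates labelled Ptpn11D61Y/+, the median difference, 1 minus 2, was −0.30, −0.08, 0.04 and 0.25, and between the MxCre replicates it lay between −0.22 and −0.14. Beside BM MxCre 2, the spleen library of S3 animal 540 held RNA of both sex chromosomes, with Xist at 9.23 CPM and Ddx3y at 16.5 CPM. BM Ptpn11D61Y/+ 1 had 1113 counts of Ddx3y and 1 count of Xist, unlike the spleen library with the same label number, so the number does not mark 1 animal in both tissues.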
